A study of Mus musculus with 40 samples.

Results

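The comparison described here set the renal cortex of heterozygous Ins2-Akita mice against that of wild type (WT) littermates, both given water as vehicle. It holds 10 of the 40 RNA-seq libraries of the series, 5 Akita and 5 WT. Genes entered it when their mean over these 10 libraries was at least 10 estimated counts, which kept 18304 of the 55401 genes in the table. All mice were male, on the C57BL/6J background, and gavaged from 6 to 22 weeks of age. Water was the vehicle paired with MitoQ, a mitochondria-targeted antioxidant, while the other vehicle arm, with ethanol, was paired with MitoGamide. The labels number the replicates without saying how each was collected, so p-values measure the spread between these libraries.

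The Akita allele changes the insulin gene Ins2 so that the protein misfolds in the pancreatic beta cell, and heterozygous males become diabetic without any toxin. The mutant gene is not one that kidney cells use. Ins2 had between 0 and 2 counts in every library and Ins1 had 0, so the kidney RNA does not check the genotype labels. The renal cortex is mostly proximal tubule, which takes filtered glucose, amino acids and proteins back from the urine and carries many of the enzymes that conjugate, hydrolyse and oxidise small molecules. In the mouse these proximal tubule enzymes differ between the sexes and respond to androgen, and in diabetes the same cells face a raised glucose load.

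The libraries held between 9106654 and 23109915 estimated counts and differed in quality. The share of counts from the 2 mitochondrial ribosomal RNAs ran from 9.23% to 41.5%, and the 10 most abundant genes took between 24.8% and 61.8%. On library totals, the mitochondrial transcript mt-Co1 was between 14477 and 16844 CPM, the count scaled to a common library size, in Akita replicates 1 and 4 and WT replicates 1 and 5, and between 3273 and 8584 CPM in the other 6. The first principal component, with 45.7% of the variance, parted the same 4 libraries from the other 6, and the second, with 15.1%, held all 5 Akita libraries below all 5 WT libraries. Proximal tubule markers such as Lrp2, the endocytic receptor megalin, were present in every library, at 1736 to 5543 CPM in Akita and 2439.8 to 6630.2 CPM in WT on library totals. WT replicate 1 also carried RNA of other tissues, with albumin (Alb) at 337 CPM against 1.65 to 29.5 CPM in the other 9 libraries, and several results on genes that liver or fat also express are given without it.

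**Figure D1:**
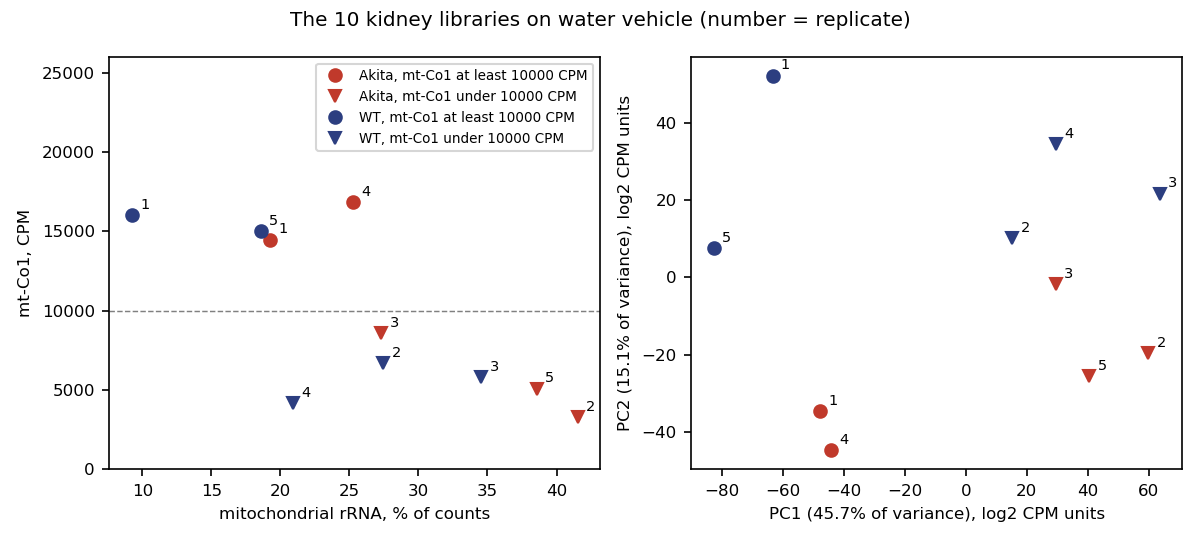
Left, mt-Co1 (vertical axis, CPM on library totals) against the share of counts from mitochondrial ribosomal RNA (horizontal axis, %) in the 10 libraries; right, the first and second principal components of log2 CPM. Colour gives the genotype, shape the mt-Co1 class on either side of 10000 CPM (dashed line), and the number the replicate; 4 libraries lie above the line, and on the second component the genotypes do not overlap.

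Among the 18304 genes, 101 (0.552%) differed between Akita and WT at an adjusted p under 0.05 by edgeR's quasi-likelihood test with Benjamini-Hochberg adjustment. Of these, 34 (0.186%) were higher and 67 (0.366%) were lower in Akita mice. A further measure was separation, meaning that all 5 Akita values lay on one side of all 5 WT values, and it was met by 459 genes (2.51%), 164 higher (0.896%) and 295 lower (1.61%). At an unadjusted p under 0.05 there were 1384 genes (7.56%). Of the 101 genes past the test, 99 were separated. The exceptions were Acot3, an acyl-CoA thioesterase, and the gene model Gm6614, both higher in Akita, and in each of them 1 Akita library fell below the highest WT library. The median size of the change among the 101 genes was 1.55 on the log2 scale and the smallest was 0.73. The signed log2 fold changes of all tested genes had a median of 0.00, which is not a size of change because rises and falls cancel in it. By annotation 90 of the 101 were protein coding.

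Kynu, Ugt1a10, Grem1 and Eda2r rose furthest among the higher genes with the smallest p-values. Kynu (chr2:43555329-43682715, plus strand of GRCm38) encodes kynureninase, an enzyme of tryptophan breakdown that needs vitamin B6 as its cofactor. It measured 44.9, 31.4, 17.5, 57.00 and 38.9 CPM in Akita replicates 1 to 5 and 4.64, 7.24, 3.37, 3.93 and 6.21 CPM in WT replicates 1 to 5. The lowest Akita library was well above the highest WT library, and the log2 fold change was 2.90 ± 0.32 (SE) with an adjusted p of 0.003005 by edgeR. Ugt1a10 (chr1:88055388-88219004, plus strand), a glucuronosyltransferase isoform that conjugates lipophilic compounds, measured 23.1, 31.8, 23.2, 114 and 27.99 CPM in Akita and 2.21, 1.104, 0.473, 1.03 and 1.69 CPM in WT. All Akita libraries were above all WT libraries and replicate 4 stood far above the other Akita libraries. The log2 fold change was 5.08 ± 0.58 (SE), adjusted p = 0.00315 by edgeR, and ranged from 4.34 to 5.37 when single libraries were left out. Ugt1a isoforms share their 3' exons, so reads may be divided among them, and the isoforms Ugt1a2 (log2 fold change 4.52, adjusted p = 0.0931 by edgeR) and Ugt1a1 (0.60, adjusted p = 0.881 by edgeR) did not pass the test.

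Grem1 (chr2:113746164-113758646, minus strand), a secreted antagonist of bone morphogenetic proteins, was almost absent from WT cortex. It measured 4.28, 3.61, 5.33, 5.19 and 17.5 CPM in Akita and 0.285, 0, 0.177, 0.103 and 0.0628 CPM in WT, which were 447 and 9 counts summed over each group. No WT library came near the lowest Akita library, Akita replicate 5 was the highest, and the log2 fold change was 5.74 ± 0.67 (SE), adjusted p = 0.00318 by edgeR. Eda2r (chrX:97333840-97377216, minus strand), a receptor of the tumour necrosis factor family and a p53 target, measured 2.23, 1.24, 1.62, 1.86 and 1.81 CPM in Akita and 0.285, 0.184, 0.177, 0.207 and 0.377 CPM in WT. These low levels rested on 132 counts over the Akita libraries and 18 over the WT libraries, and they did not overlap (log2 fold change 2.79 ± 0.33 (SE), adjusted p = 0.00372 by edgeR).

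The other higher genes with the smallest p-values had smaller changes. Clca3a1, a secreted protein that regulates chloride channels, stood at 17.9, 20.6, 12.03, 12.7 and 15.7 CPM in Akita and 5.07, 7.79, 3.96, 3.31 and 4.39 CPM in WT, a log2 fold change of 1.67 ± 0.24 (SE) with adjusted p = 0.0139 by edgeR. Stc1, a glycoprotein hormone made in the kidney, stood at 8.03, 6.77, 7.898, 11.6 and 10.4 CPM in Akita and 3.78, 3.25, 2.66, 2.17 and 4.02 CPM in WT, a log2 fold change of 1.48 ± 0.22 (SE) with adjusted p = 0.01400 by edgeR. Krt18, an epithelial keratin used as a marker of tubular injury, stood at 13.2, 15.00, 10.8, 22.5 and 14.8 CPM in Akita and 6.21, 6.07, 4.61, 6.82 and 6.46 CPM in WT, a log2 fold change of 1.34 ± 0.20 (SE) with adjusted p = 0.01497 by edgeR. In each of these 3 genes the groups did not overlap. The predicted gene Gm9732 was at 1.24 to 2.39 CPM in Akita and 0.314 to 0.552 CPM in WT and differed by 1.94 ± 0.30 (SE) on the log2 scale, adjusted p = 0.01501 by edgeR.

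**Figure D2:**
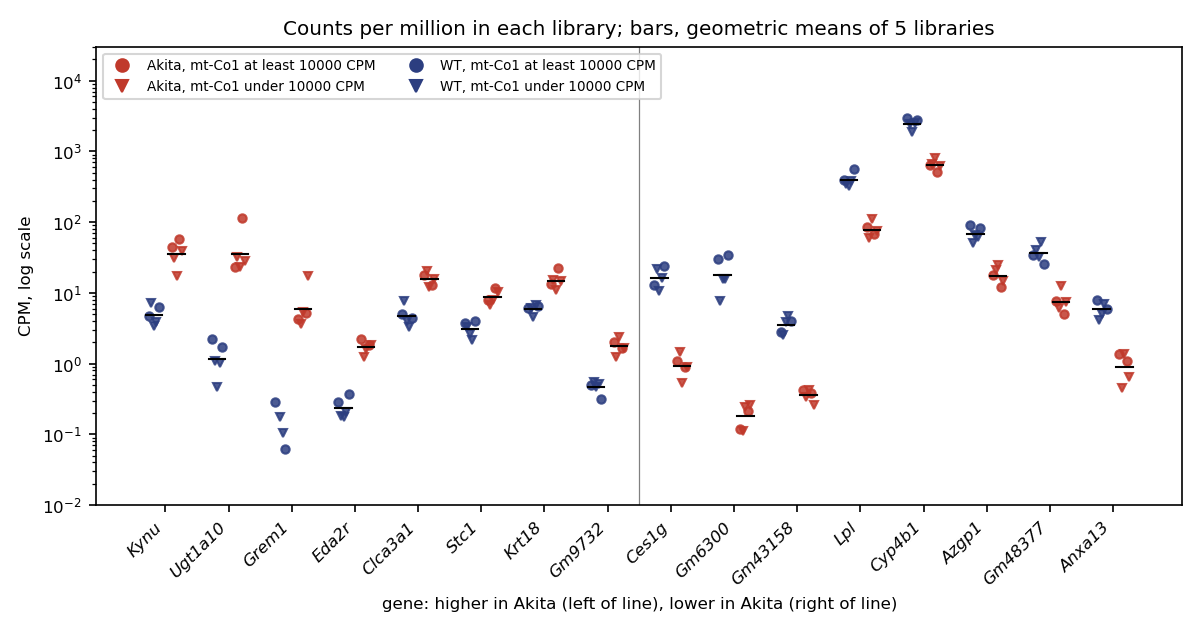
Normalised level (CPM, log axis) of the 8 higher and the 8 lower genes with the smallest p-values, in each of the 5 Akita and 5 WT libraries on water. Symbols are single libraries, with their shape giving the mt-Co1 class, and bars are geometric means; 1 WT library with 0 counts of Grem1 cannot be drawn, and for that reason WT has no bar there. In all 16 genes every Akita library lies on one side of every WT library, which the rule for choosing them required.

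The 8 lower genes with the smallest p-values were Ces1g, Gm6300, Gm43158, Lpl, Cyp4b1, Azgp1, Gm48377 and Anxa13. Ces1g (chr8:93302369-93337308, minus strand), a carboxylesterase that hydrolyses esters and lipids, measured 1.09, 1.47, 0.539, 0.909 and 0.907 CPM in Akita and 13.1, 21.5, 10.7, 16.2 and 23.7 CPM in WT. The groups were far apart in every library, with a log2 fold change of -4.14 ± 0.30 (SE) and an adjusted p of 0.0001402 by edgeR. Its neighbour Ces1f, which lies 22.6 kb away on the same strand, fell from 382 ± 89.6 CPM (SD, n = 5) to 145 ± 33.8 CPM (SD, n = 5), a log2 fold change of -1.40 ± 0.22 (SE) with adjusted p = 0.01501 by edgeR. Ces1 genes are close copies, so reads may be divided among them. Lpl (chr8:68880491-68907448, plus strand), the lipoprotein lipase that frees fatty acids from circulating triglyceride, measured 85.6, 59.7, 109.7, 69.04 and 75.03 CPM in Akita and 399, 341, 325, 378 and 556 CPM in WT. The highest Akita library was far below the lowest WT library, with a log2 fold change of -2.32 ± 0.22 (SE), adjusted p = 0.000749 by edgeR. Azgp1, a secreted glycoprotein linked to lipid mobilisation, measured 17.8, 20.8, 24.8, 11.9 and 14.6 CPM in Akita and 90.1, 50.8, 65.7, 62.6 and 82.5 CPM in WT, again without overlap (log2 fold change -1.97 ± 0.22 (SE), adjusted p = 0.00315 by edgeR). Without WT replicate 1, in which adipose and liver transcripts were high, the log2 fold changes were -2.31 for Lpl, -1.85 for Azgp1, -4.21 for Ces1g and -1.30 for Ces1f, whose adjusted p of 0.0501 by edgeR no longer met the threshold of 0.05.

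The pseudogene Gm6300 (chr3:14363117-14377587, plus strand) had the largest fall by fold. It measured 0.121, 0.113, 0.239, 0.216 and 0.259 CPM in Akita, 14 counts over 5 libraries, and 30.6, 7.73, 15.8, 15.5 and 34.01 CPM in WT, 1514 counts over 5 libraries. WT libraries varied widely among themselves, yet the lowest was far above any Akita library (log2 fold change -6.70 ± 0.50 (SE), adjusted p = 0.0001402 by edgeR). A second pseudogene, Gm43158, fell by 3.21 ± 0.29 (SE) on the log2 scale, adjusted p = 0.000668 by edgeR. Reads of pseudogenes may come from their parent genes. Il34, a cytokine for macrophages made by tubular cells, measured 0.845, 2.03, 2.45, 1.34 and 2.07 CPM in Akita and 14.3, 4.66, 8.63, 10.5 and 7.22 CPM in WT, with no overlap and a log2 fold change of -2.39 ± 0.35 (SE), adjusted p = 0.0139 by edgeR. Gm15895, an antisense gene that overlaps the Il34 gene by 287 bases, moved the same way by -3.88 ± 0.48 (SE), adjusted p = 0.00504 by edgeR. Whether the counting used the strand is not given in the sources used here, so reads of the pair may not be told apart. Cntnap5a, a neurexin-family cell adhesion gene, fell from 7.32 ± 3.15 CPM (SD, n = 5) to 0.591 ± 0.3896 CPM (SD, n = 5), adjusted p = 0.00693 by edgeR. Anxa13, an epithelial annexin, fell from 6.001 ± 1.503 CPM (SD, n = 5) to 0.989 ± 0.425 CPM (SD, n = 5), adjusted p = 0.00479 by edgeR.

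The enzymes of drug and lipid metabolism moved in both directions. The list used here, and the lists that follow, were chosen with earlier results of these data known. Their shares beside those of all genes are thus a description. Of 34 tested Ugt, Ces and cytochrome P450 genes, 3 rose (Ugt1a10, Cyp4a14, Cyp27b1) and 4 fell (Ces1g, Cyp4b1, Ces1f, Cyp4a12a), and the list's median log2 fold change was -0.32. Over all genes 0.186% rose and 0.366% fell. DESeq2 called 5 of the 34 higher and 8 lower, against 0.639% and 1.29% of all genes (1.93% in either direction). By edgeR 19 of the 34 had an unadjusted p under 0.05, against 7.56% of all genes. Within the Cyp4 cluster on chromosome 4, the genes past the test went in both directions. Cyp4a14 (chr4:115486200-115496142, minus strand), an omega-hydroxylase of fatty acids and a PPAR-alpha target, measured 384, 280.3, 131, 855 and 327 CPM in Akita and 21.4, 52.5, 5.91, 6.72 and 55.7 CPM in WT. The genotypes did not overlap, but both were widely spread, and the log2 fold change was 3.79 ± 0.71 (SE) with adjusted p = 0.0406 by edgeR. Cyp4a12a, 153 kb away, is the androgen-driven omega-hydroxylase of the male kidney and measured 11.9, 5.19, 22.7, 3.29 and 20.9 CPM in Akita and 209.8, 53.7, 77.7, 65.4 and 178 CPM in WT (log2 fold change -3.199 ± 0.58 (SE), adjusted p = 0.0339 by edgeR). Cyp4b1, 129 kb away on the other side, was an abundant transcript at 649.6, 670.3, 811, 511 and 626 CPM in Akita and 2999, 2444, 1868, 2493 and 2743 CPM in WT, with tight groups and a log2 fold change of -1.94 ± 0.21 (SE), adjusted p = 0.003005 by edgeR. Cyp4a10, which lies between Cyp4a14 and Cyp4b1, had the sign of Cyp4a14, with a log2 fold change of 1.73, and did not pass (adjusted p = 0.148 by edgeR). Cyp27b1, which makes the active form of vitamin D, measured 68.3, 24.9, 9.69, 33.5 and 9.59 CPM in Akita and 1.998, 6.93, 3.78, 3.203 and 4.77 CPM in WT. Every Akita library was above every WT library, yet the Akita libraries spread more widely than the WT libraries (log2 fold change 2.81 ± 0.54 (SE), adjusted p = 0.0461 by edgeR). Cyp4a14 and Cyp27b1 each stayed past the threshold in 2 of 10 fits with a library removed, in which their log2 fold changes ran from 3.30 to 4.21 and from 2.23 to 3.08, and Cyp4a12a did in 3. WT replicate 1 was the highest library for Cyp4a12a, and without it the log2 fold change was -2.87 with adjusted p = 0.0901 by edgeR.

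Androgen-responsive kidney transcripts had mostly negative log2 fold changes, although few passed the test. Of 19 tested, 2 fell (Ces1f, Cyp4a12a), 2 rose (Prlr, Slc7a12), and 15 had values below 0 for the log2 fold change, with a list median of -1.10 against 0.00 over all tested genes. In 7 of them the Akita libraries all lay below the WT libraries, as they did in 1.61% of all genes. The list was chosen with earlier results of these data known, so this is a description. DESeq2 called 9 of the 19 lower and 2 higher, against 1.29% and 0.639% of all genes. Hsd17b11, a steroid dehydrogenase of lipid droplets, measured 66.4, 26.7, 48.8, 53.9 and 38.1 CPM in Akita and 219, 109.6, 81.5, 104 and 210.4 CPM in WT, which were separated but fell just short of the test (log2 fold change -1.63 ± 0.32 (SE), adjusted p = 0.0515 by edgeR). Slco1a1, an organic anion transporter, and Kap, the kidney androgen-regulated protein, had log2 fold changes of -3.29 and -2.07, separated in both cases, with adjusted p of 0.0733 and 0.133 by edgeR. The genes that rose were Prlr, the prolactin receptor, by 1.97 ± 0.36 (SE) (adjusted p = 0.0355 by edgeR), and Slc7a12, an amino acid transporter, by 2.77 ± 0.53 (SE) (adjusted p = 0.0442 by edgeR). They stayed past the threshold in 3 and 2 of 10 fits with a library removed.

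Transport, hormone and cofactor genes each contributed a few calls. Across all tested genes edgeR put 0.186% higher and 0.366% lower. The same shares for DESeq2 were 0.639% and 1.29%. Before adjustment, 7.56% of all tested genes fell below a p of 0.05 by edgeR. Among 13 kynurenine and vitamin B6 enzymes, Kynu and Pdxk rose and 11 did not pass (0.186% of all genes rose). DESeq2 called 2 of the 13 higher and 2 lower, and by edgeR 7 had an unadjusted p under 0.05. Pdxk, the kinase that activates vitamin B6, measured 159, 118, 121, 212 and 165 CPM in Akita and 73.7, 94.2, 49.5, 67.8 and 82.6 CPM in WT, without overlap but at the edge of the test (log2 fold change 1.08 ± 0.21 (SE), adjusted p = 0.0497 by edgeR) and past it in 1 of 10 fits with a library removed. The other 11 all had log2 fold changes below 0 without passing; the nearest to passing, the formamidase Afmid, was at -0.98 (adjusted p = 0.0878 by edgeR). Among 23 organic ion transporters, 1 rose and 1 fell, and the Akita libraries lay below the WT libraries in 6 (1.61% of all genes were separated lower). DESeq2 called 6 of the 23 lower and 1 higher, and 12 had an unadjusted p under 0.05 by edgeR. Slc22a7, an organic anion transporter of the proximal tubule, measured 6.16, 9.93, 19.9, 5.58 and 4.28 CPM in Akita and 85.5, 33.6, 54.1, 46.2 and 81.7 CPM in WT, with no overlap and a log2 fold change of -2.70 ± 0.42 (SE), adjusted p = 0.0153 by edgeR, and of -2.53 without WT replicate 1. Abcc4, an efflux pump for cyclic nucleotides and conjugates, measured 123, 128, 75.9, 166 and 88.1 CPM in Akita and 42.7, 56.1, 36.5, 36.6 and 56.3 CPM in WT (log2 fold change 1.35 ± 0.23 (SE), adjusted p = 0.0229 by edgeR), and passed in 4 of 10 such fits. Ace, the angiotensin-converting enzyme, fell from 151 ± 72.3 CPM (SD, n = 5) to 50.3 ± 9.98 CPM (SD, n = 5), adjusted p = 0.0384 by edgeR, and stayed past the threshold in 2 of 10 such fits. It was the only one of 16 renin-angiotensin and kallikrein genes to pass by edgeR (0.366% of all genes fell), with 5 at an unadjusted p under 0.05, and DESeq2 called 1 higher and 1 lower. Agt, the angiotensin precursor, had a log2 fold change of 0.83 with all Akita libraries above all WT libraries (adjusted p = 0.137 by edgeR).

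The following genes past the test, like Csf1r, Apoh and Hrg elsewhere in the text, were chosen after their values were seen. The metallothioneins Mt1 and Mt2, which bind zinc and copper and lie 5.51 kb apart on chromosome 8, rose together. Mt1 measured 50.8, 46.4, 22.98, 46.9 and 46.7 CPM in Akita and 18.98, 19.7, 9.22, 14.98 and 14.9 CPM in WT (log2 fold change 1.46 ± 0.25 (SE), adjusted p = 0.0229 by edgeR). Mt2 measured 22.2, 20.5, 9.75, 21.4 and 18.4 CPM in Akita and 6.64, 8.59, 4.85, 5.48 and 6.401 CPM in WT (log2 fold change 1.53 ± 0.24 (SE), adjusted p = 0.01501 by edgeR). Mt1 passed in 4 and Mt2 in 8 of 10 fits with a library removed. In both, Akita replicate 3 was the lowest of its group and still above all WT libraries. Sgk1, the kinase that aldosterone and glucocorticoids induce and that keeps sodium channels at the membrane, measured 220.0, 121, 101, 166 and 113 CPM in Akita and 51.9, 50.5, 35.1, 55.9 and 60.3 CPM in WT, with the lowest Akita library well above the highest WT library (log2 fold change 1.51 ± 0.23 (SE), adjusted p = 0.01501 by edgeR). Htra1, a secreted serine protease, went the other way with tight groups, at 43.2, 38.8, 49.5, 40.2 and 46.9 CPM in Akita and 98.8, 90.6, 73.9, 93.9 and 96.02 CPM in WT (log2 fold change -1.05 ± 0.13 (SE), adjusted p = 0.00553 by edgeR). Ppard, a lipid-sensing nuclear receptor, and Cbs, which makes cystathionine from homocysteine, fell by 1.33 and 1.41 on the log2 scale (adjusted p = 0.0159 and 0.0139 by edgeR), each with no overlap, and Cbs was at -1.25 without WT replicate 1.

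The promoters of 4 of these genes are shown because each holds a motif of a transcription factor that answers to hormones, oxidants or the clock. Windows run from 250 bases before to 50 bases after the transcription start and come from RefSeq on GRCm38.p6, 5' to 3' on the gene's strand, with motif matches in capitals. Sgk1 (chr10:21993640-21993939, plus strand, 1 of 6 windows of that gene) holds the palindrome bound by steroid receptors, AGAACA and TGTTCT with 3 bases between them, from position -189, and the E-box CACGTG. Mt2 (chr8:94172368-94172667, plus strand) holds the antioxidant response element core TGACNNNGC. Abcc4 (chr14:118706170-118706469, minus strand, 1 of 2 windows) holds both the core, on the opposite strand, and an E-box, while Ces1g (chr8:93337160-93337459, minus strand), the gene with the largest fall among the enzymes of the lists, holds the D-box TTATGTAA.
Sgk1: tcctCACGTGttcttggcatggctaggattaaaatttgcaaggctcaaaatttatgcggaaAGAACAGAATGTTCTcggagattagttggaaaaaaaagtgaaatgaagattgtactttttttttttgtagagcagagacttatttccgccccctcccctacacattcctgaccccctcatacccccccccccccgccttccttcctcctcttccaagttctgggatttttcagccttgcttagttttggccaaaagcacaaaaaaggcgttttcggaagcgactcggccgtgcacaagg
Mt2: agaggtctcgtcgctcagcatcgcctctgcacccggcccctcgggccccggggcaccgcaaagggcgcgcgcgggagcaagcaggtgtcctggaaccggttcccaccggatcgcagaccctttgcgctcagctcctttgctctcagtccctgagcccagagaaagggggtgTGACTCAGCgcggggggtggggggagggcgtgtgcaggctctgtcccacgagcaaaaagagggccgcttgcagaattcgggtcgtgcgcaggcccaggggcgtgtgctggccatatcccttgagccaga
Abcc4: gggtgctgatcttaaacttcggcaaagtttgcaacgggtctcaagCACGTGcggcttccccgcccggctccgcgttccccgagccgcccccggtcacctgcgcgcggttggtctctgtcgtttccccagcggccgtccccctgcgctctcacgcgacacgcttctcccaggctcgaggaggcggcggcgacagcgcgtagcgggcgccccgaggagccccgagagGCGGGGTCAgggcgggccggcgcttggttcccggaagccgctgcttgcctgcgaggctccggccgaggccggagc
Ces1g: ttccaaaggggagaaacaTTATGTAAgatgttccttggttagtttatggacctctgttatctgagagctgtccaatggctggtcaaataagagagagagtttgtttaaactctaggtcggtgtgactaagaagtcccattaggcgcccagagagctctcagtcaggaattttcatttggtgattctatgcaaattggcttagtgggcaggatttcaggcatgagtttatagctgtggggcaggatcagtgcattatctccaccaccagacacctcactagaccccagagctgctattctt

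Of the 101 genes, 68 had promoter windows in the RefSeq table, 92 windows in all, and both strands were searched. The steroid palindrome was in 3 of all 32851 windows (0.00913%) and in 0.013% of the 15409 windows of tested genes, 1 of them that of Sgk1. The antioxidant core was in 12.4% of all windows, 13.8% of those of tested genes and 14 of the 92 (15.2%). The E-box was in 7.15% of all windows, 9.14% of those of tested genes and 9 of the 92 (9.78%). The D-box was in 0.938% of all windows, 0.694% of those of tested genes and 2 of the 92 (2.17%). The direct repeat of AGGTCA with 1 base between its copies was in 0.0396% of all windows, 0.0389% of those of tested genes and 0 of the 92. These are matches of letters, and binding was not measured.

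The remaining pathways had few or no calls by edgeR. Over all genes, edgeR called 0.186% higher and 0.366% lower, and DESeq2 called 0.639% higher and 1.29% lower. An unadjusted p under 0.05 by edgeR was met by 7.56% of all genes. Among 15 p53 targets only Eda2r passed, with 8 at an unadjusted p under 0.05 and 3 called higher by DESeq2; 14 had log2 fold changes above 0 (50.4% of all genes did), with a median of 0.59. Cdkn1a, a cell cycle inhibitor, was at 1.09 (adjusted p = 0.177 by edgeR). Among 17 tubular injury markers Krt18 rose and Il34 fell, while DESeq2 called 4 higher and 2 lower (8 by edgeR's p without adjustment); Havcr1, the gene of kidney injury molecule 1, was below the count minimum. Of 28 matrix and fibrosis genes only Grem1 passed, by DESeq2 as well, with 4 at an unadjusted p under 0.05. Col4a1, a basement membrane collagen, was at 0.02, a sign that turned under other settings, and Fn1, fibronectin, at 0.50. Other matrix genes passed outside the list, chosen after their values were seen. Col6a6 (-2.46) and Ltbp4 (-0.90) fell, and Col12a1 (1.12) and Papln (1.15) rose. With a library removed they passed in 10, 9, 3 and 0 of 10 fits. Among 29 antioxidant and NRF2 target genes 6 had an unadjusted p under 0.05 and DESeq2 called 3 higher. By edgeR Gsta2, a glutathione transferase, rose from 63.9 ± 26.95 CPM (SD, n = 5) to 235 ± 108 CPM (SD, n = 5), adjusted p = 0.0448 by edgeR, which held in 2 of 10 fits with a library removed, and Cbr3, a carbonyl reductase, was separated at 2.09 without passing (adjusted p = 0.0699 by edgeR). Heat shock and unfolded protein response genes had 0 calls among 26 by edgeR, with 13 at an unadjusted p under 0.05 and 4 called lower by DESeq2; 23 of the 26 had log2 fold changes below 0, with a median of -0.50. Hsph1, a large heat shock protein, was separated at -0.90 (adjusted p = 0.137 by edgeR), and Hspa1a, the inducible HSP70, was at -2.03 with wide WT values of 9.41 to 116 CPM.

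The lists of glucose handling and of core mitochondrial functions had 0 calls by edgeR, although single mitochondrial enzymes outside them passed, such as Ldhd, a lactate dehydrogenase for the D form (-1.42, adjusted p = 0.01501 by edgeR; chosen after its values were seen). Over all genes 0.552% passed by edgeR, 1.93% were called by DESeq2 and 7.56% had an unadjusted p under 0.05 by edgeR. By edgeR 0 of 15 glucose and fructose transporters passed, with 6 at an unadjusted p under 0.05 and 1 called by DESeq2. Likewise 0 of 25 glycolysis and gluconeogenesis genes passed by edgeR or DESeq2, with 4 at an unadjusted p under 0.05. The counts by edgeR were also 0 of 30 for the TCA cycle, 0 of 26 for nuclear genes of the respiratory chain and 0 of 15 for mitochondrial transcripts, with 1, 0 and 4 at an unadjusted p under 0.05 and 0, 0 and 1 called by DESeq2. The median log2 fold changes of these 3 lists were -0.0049, -0.042 and 0.461. Values above 0 numbered 14, 7 and 12 (50.4% of all genes were above 0). The mitochondrial transcript mt-Atp8 was separated at 1.16 without passing (adjusted p = 0.389 by edgeR). Slc5a2, the sodium-glucose transporter SGLT2, stood at 361, 303, 209.7, 283 and 194 CPM in Akita and 336, 354, 235, 269.5 and 334 CPM in WT, with overlapping groups and a log2 fold change of -0.18 ± 0.20 (SE). Ppargc1a, the coactivator PGC-1alpha that drives mitochondrial biogenesis, stood at 103, 95.8, 87.9, 107 and 94.6 CPM in Akita and 74.9, 80.2, 68.1, 59.6 and 72.8 CPM in WT. Its groups were separated and tight, while its log2 fold change of 0.46 ± 0.13 (SE) had an adjusted p of 0.209 by edgeR. Glo1, the glyoxalase that clears methylglyoxal, had overlapping groups and a log2 fold change of -0.23 ± 0.26 (SE). The circadian list gave 1 call in 19 by edgeR, with 7 at an unadjusted p under 0.05 and 1 called higher and 1 lower by DESeq2. It was Bhlhe41, a repressor of the clock, which rose by 1.55 ± 0.30 (SE), adjusted p = 0.0497 by edgeR, and which passed in 1 of 10 fits with a library removed. Lists of the polyol pathway, amino acid breakdown, immediate early genes, hypoxia and insulin signalling also had 0 calls by edgeR, with 3, 7, 4, 5 and 3 genes at an unadjusted p under 0.05 and 0, 0, 0, 2 and 1 called by DESeq2. Ly6e, an interferon-inducible surface protein, was the single call by edgeR among 29 interferon and antigen presentation genes (0.366% of all genes fell). Of the 29, 6 had an unadjusted p under 0.05 and DESeq2 called 3 lower (1.29% of all genes). Ly6e measured 66.5, 50.7, 45.8, 63.7 and 43.9 CPM in Akita and 207, 108, 109, 141 and 216 CPM in WT (log2 fold change -1.53 ± 0.24 (SE), adjusted p = 0.01501 by edgeR).

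**Figure D3:**
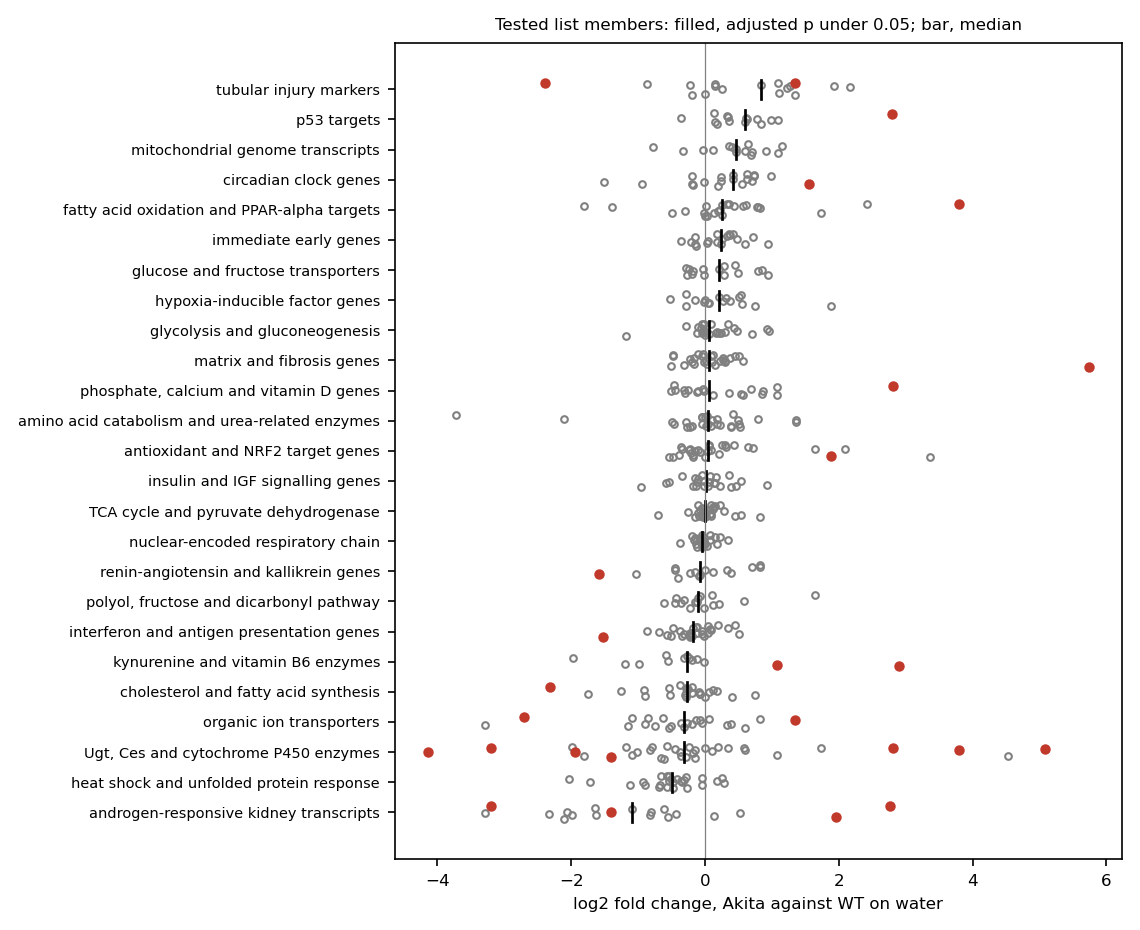
Log2 fold change, Akita against WT on water, of every tested member of 25 gene lists, ordered by the list's median (bar). Filled points had an adjusted p under 0.05 by edgeR; androgen-responsive transcripts have the lowest median (-1.10) and tubular injury markers the highest (0.84), and most lists hold no more than 1 filled point on either side of 0.

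Markers of other cells in the cortex were read beside these results. The summed level of 10 macrophage markers was 37.8 to 59.6 CPM in Akita and 60.2 to 96.8 CPM in WT on library totals, with no overlap. Without Csf1r the other 9 summed to 23.9 to 40.7 CPM in Akita and 29.5 to 48.5 CPM in WT, which overlapped. The sums also overlapped, narrowly, without Mrc1, at up to 56.17 CPM in Akita and from 56.10 CPM in WT. The median log2 fold change of the 10 was -0.11, and Csf1r was the 1 of them that was separated. Of these markers 1 passed the test, Csf1r, the receptor of the cytokine that Il34 encodes, at 17.98, 22.3, 23.5, 18.3 and 16.3 CPM in Akita and 41.6, 28.2, 40.2, 31.2 and 37.2 CPM in WT (log2 fold change -0.86 ± 0.16 (SE), adjusted p = 0.0339 by edgeR), a call that held in 2 of 10 fits with a library removed. The macrophage marker Adgre1 overlapped, at 0.988 to 3.41 CPM in Akita and 1.91 to 5.47 CPM in WT. Lymphocyte markers, 7 of 13 tested and none past the test, summed to 26.8 to 44.1 CPM in Akita and 44.8 to 71.6 CPM in WT. Without Ptprc, the leukocyte marker CD45, the sums overlapped, at 17.1 to 32.6 CPM in Akita and 27.96 to 57.2 CPM in WT. They also overlapped, narrowly, without Cd8a (Akita up to 42.93 CPM, WT from 42.13 CPM) and without Ighm (Akita up to 42.41 CPM, WT from 42.33 CPM). The part of these cells in the lower values of Il34 and Ly6e was not tested. Fewer cells of a type and less RNA per cell cannot be told apart in these bulk samples. Summed markers of proximal tubule, loop of Henle, distal tubule, collecting duct, podocytes, endothelium and stroma overlapped between genotypes. The following single markers were chosen after their values were seen. Slc7a13 of the proximal tubule fell (log2 fold change -1.999, adjusted p = 0.014005 by edgeR). It passed in 9 of 10 fits with a library removed. On library totals Umod of the loop of Henle was at 419 to 810 CPM in Akita and 880 to 2191 CPM in WT. Slc34a1 and Slc27a2 of the proximal tubule were lower too, narrowly without overlap. Neither these nor Umod passed the test. Liver markers, 9 of 10 tested and none past the test, summed to 28.7 to 73.8 CPM in Akita and 33.7 to 626 CPM in WT, with the highest value in WT replicate 1. The plasma protein genes Apoh and Hrg fell by 3.55 and 2.35 on the log2 scale (adjusted p = 0.0139 and 0.0232 by edgeR), and without WT replicate 1 their log2 fold changes were -3.07 and -1.93; Hrg passed in 5 of 10 fits with a library removed. All 101 genes kept their direction without that library, with a median size of 1.53 against 1.55. The 101 genes were chosen with that library included, so the shared direction is a description. In the fit without it 49 genes passed.

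The count of genes past the test depended on how library quality was handled, while their direction did not. When the mt-Co1 class of a library was added to the model, 551 genes passed, 192 higher and 359 lower, and all 101 genes were among them. In the 4 libraries with high mt-Co1, 2 per genotype, all 101 genes had the same direction, with a median size of 1.85. In the 6 libraries with low mt-Co1, 3 per genotype, the 100 genes that could be tested also had the same direction, with a median size of 1.35. These libraries were among those that chose the 101 genes, so the shared direction is a description. Grem1 was larger in the low class (6.39 against 4.74 on the log2 scale). Apoh, Cyp4a12a and Ace were larger in the high class (-4.92 against -2.48, -4.73 against -1.995, and -2.18 against -0.998). That class holds WT replicate 1, the highest library for each of these genes (15.98, 209.8 and 257.5 CPM). Ces1g and Anxa13 were nearly equal in the classes (-4.22 against -4.15, and -2.51 against -2.55). The differences between classes were not tested. Leaving out single libraries kept 29 of the 101 genes past the test in all 10 fits, among them the 16 leading genes, Gm15895 and Cntnap5a. Il34, Slc22a7, Ly6e and Ppard each passed in 9 of the 10, Sgk1 and Ldhd in 8 and Ces1f in 7, with the call of Sgk1 lost without Akita replicate 4 and without WT replicate 1. The count of genes past the test was lowest without Akita replicate 4, at 32, and was 44 without Akita replicate 5, 49 without WT replicate 1, 50 without WT replicate 4, 52 without Akita replicate 2 and 59 without Akita replicate 1.

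The same contrast was run in the other arms, which share no library with the water arm. On ethanol 2910 of 17747 genes (16.4%) passed, 8.18% of the tested genes higher and 8.22% lower, on MitoGamide 2386 of 16674 (14.3%) and on MitoQ 101 of 18143 (0.557%). All 101 genes of the water arm had the same direction on ethanol and on MitoQ, and so did all 100 tested on MitoGamide. Of the 101, 96 also passed on ethanol, which is 95.0% of the water calls and 3.30% of the ethanol calls. With MitoGamide 88 were shared (87.1% and 3.69%), and with MitoQ 44 (43.6% of each list). The spread between libraries differed between arms, with a biological coefficient of variation of 0.321 on water, 0.129 on ethanol, 0.189 on MitoGamide and 0.245 on MitoQ. Of 10 libraries per arm, 6 on water and 3 on MitoQ had mt-Co1 under 10000 CPM, and none did on ethanol or MitoGamide.

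Values of the leading genes stood side by side in the 2 arms. Kynu was at 2.90 on water and 2.56 on ethanol on the log2 scale, Ugt1a10 at 5.08 and 4.78, Ces1g at -4.14 and -3.93, Gm6300 at -6.70 and -6.16, and Lpl at -2.32 and -2.10. Of the 16 leading genes 3 had an unadjusted interaction p under 0.05 by edgeR, Grem1 (5.74 and 3.57), Krt18 (1.34 and 0.59) and Cyp4b1 (-1.94 and -1.44), with p of 0.0455, 0.00834 and 0.0373. Eda2r stood at 2.79 and 2.16, Clca3a1 at 1.67 and 1.28, Stc1 at 1.48 and 0.93, Gm9732 at 1.94 and 2.50, Gm43158 at -3.21 and -3.52, Azgp1 at -1.97 and -1.85, Gm48377 at -2.26 and -1.65, and Anxa13 at -2.52 and -2.43. Apoh, chosen after its values were seen, was at -3.55 and -2.19. Among the 5 genes that passed on water and not on ethanol were Cyp27b1 (2.81 and 1.02), Sgk1 (1.51 and 0.42), the transcriptional coregulator Mn1 (-1.07 and -0.46) and Gm13502 (-1.76 and -1.51). The interaction of genotype and vehicle arm, tested over 18050 genes, gave 0 genes past an adjusted p of 0.05 by edgeR, the smallest adjusted p being 0.707. There were 767 genes with an unadjusted p under 0.05, and DESeq2 called 2, the noncoding genes Gm29012 and Gm28959. No difference between the arms was thus detectable for the 5 genes at this spread. Among the genes with the smallest interaction p-values was Cirbp, a cold-inducible RNA-binding protein (0.21 on water and 1.14 on ethanol).

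**Figure D4:**
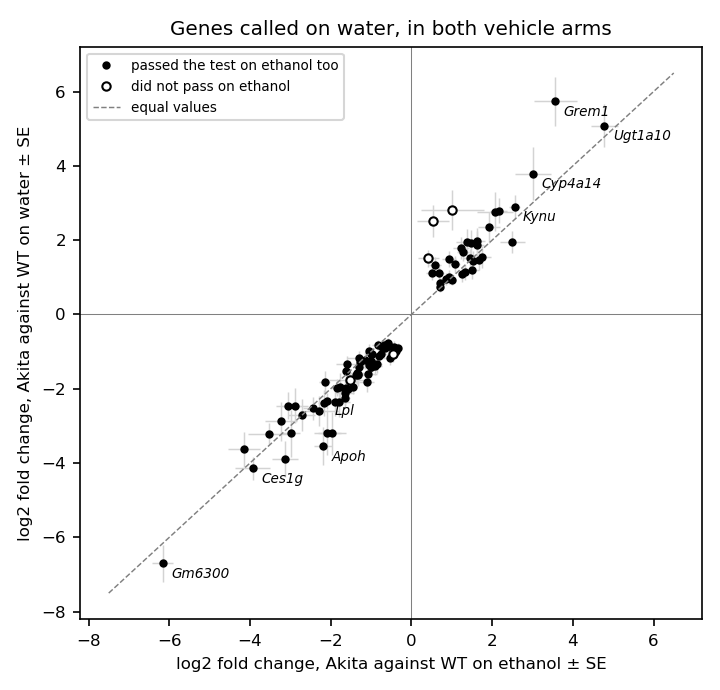
Log2 fold change, Akita against WT, of the 101 genes past the test on water (vertical axis) against the same contrast on ethanol (horizontal axis), with standard errors. Filled points (96) also passed on ethanol and open points (5) did not; every point lies in the quadrant of equal direction.

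The reverse reading used genes chosen on ethanol alone. Of 2868 genes that passed on ethanol and were tested on water, 2529 (88.2%) had the same direction on water, against 63.8% of all genes tested in both arms. The mean log2 CPM of 1440 genes higher on ethanol minus that of 1450 genes lower on ethanol gave 1 score per library. On water it was -0.464, -0.194, -0.550, -0.334 and -0.257 in Akita replicates 1 to 5 and -1.30, -0.837, -1.07, -1.17 and -1.35 in WT replicates 1 to 5. All Akita libraries were above all WT libraries, in both mt-Co1 classes, and the nearest libraries, Akita replicate 3 and WT replicate 2, were 0.287 apart. The mean difference between genotypes was 0.788 on water and 1.18 on ethanol. Heat shock and unfolded protein response genes, with 0 calls on water, had 21 falls on ethanol (8.22% of all genes fell there), and the list median was -0.50 on water and -0.86 on ethanol. Glucose and fructose transporters, also with 0 calls on water, had 8 rises on ethanol (8.18% of all genes rose), and the list median was 0.21 on water and 0.33 on ethanol.

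**Figure D5:**
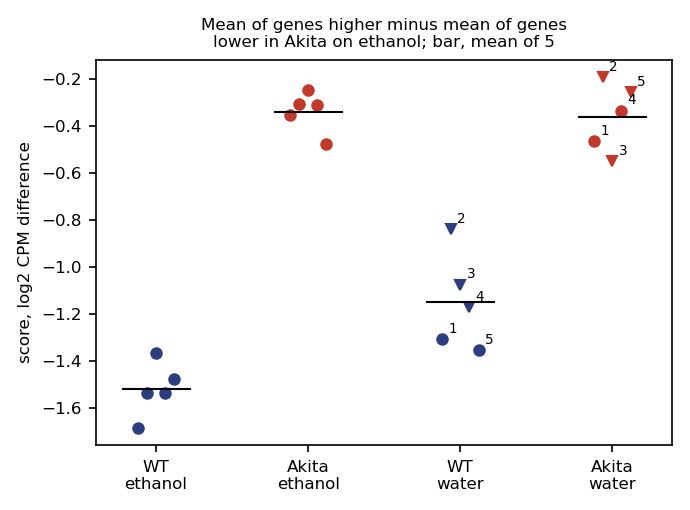
Score of each library in the 4 vehicle groups, in log2 CPM units; bars are means of 5 libraries, numbers mark replicates on water, and shapes give the mt-Co1 class as in the plot of library quality. On water the Akita libraries lie between -0.550 and -0.194 and the WT libraries between -1.35 and -0.837; the ethanol groups chose the genes, so their separation is a description.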

How the data were processed

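RNA from renal cortex of Akita and WT mice on water was sequenced by the authors as rRNA-depleted, directional single-read libraries, 5 of each genotype. The authors' processing notes name kallisto 0.46.1, R 4.0.2 and GRCm38; the deposited values are estimated counts per gene, given as whole numbers, from pseudoalignment to GENCODE mouse transcripts. Totals ran from 9106654 to 23109915 counts, and low genes are limited by counting. Genes averaging 10 counts or more across the 10 libraries were kept and compared with edgeR 4.0.16 (TMM scaling, quasi-likelihood test, no covariate, Benjamini-Hochberg adjustment over all 18304 genes, threshold 0.05) in R 4.3.3. CPM are TMM-scaled unless given on library totals. Standard errors were the log2 fold change over the square root of F. Positions come from GENCODE M21 on GRCm38, which matched 99.5% of the gene IDs. A check of the test on simulated data is not reported here, and no result rests on it.

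Genes were named by rule: the 8 higher and 8 lower separated calls with the smallest p, the 2 members of each list with the smallest p, the 4 largest calls each way, the 4 leading interaction genes each way, leaders of the ethanol arm and genes tied to the study. Other genes named are called genes or list members. The members and lists were chosen with earlier results of these data known. Alternatives were RLE scaling, DESeq2 1.42.0, limma 3.58.1 with voom and sample weights, other count minimums, covariates, a replicate block, all 40 libraries in one fit and leaving out single libraries; the mt-Co1 class as covariate or split was chosen after seeing the data. A few genes are not reported here. Whether the counting used strand is not given in the sources used here.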

Additional observations from a re-analysis of the deposited data

Results flagged for a closer look

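A library was singled out when its gap to the nearest library of its group, over the group's range, passed the 95% limit of Dixon's test (0.71 for 5 libraries); 12 of 209 groups of values (5.74%) did so, and chance gives about 1 in 20. The differences in tissue makeup and quality behind these values were not tested.

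Several concerned single genes. Ugt1a10 was at 114 CPM in Akita replicate 4, against 23.1 to 31.8 CPM in the other Akita libraries. Grem1 was at 17.5 CPM in Akita replicate 5, against 3.61 to 5.33 CPM. Bhlhe41 was at 12.1 CPM in Akita replicate 1, against 3.89 to 6.23 CPM. Fasn, the fatty acid synthase, was at 254 CPM in WT replicate 1, against 91.1 to 103 CPM.

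WT replicate 1 stood apart in 4 marker sums of other tissues. Liver markers summed to 626 CPM there (33.7 to 77.4 CPM in the other WT libraries), adipose markers to 58.2 CPM (15.7 to 22.5), medulla and urothelium markers to 250.5 CPM (79.1 to 121) and skeletal muscle markers to 10.2 CPM (0.703 to 1.52). WT replicate 2 was high in podocyte markers, at 521 CPM (292 to 357), and in markers of mesangium, pericytes and fibroblasts, at 350.3 CPM (198 to 218).

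Of the measures of quality, Lars2, a mitochondrial leucyl-tRNA synthetase, was at 18008 CPM in WT replicate 4, against 160.4 to 2335 CPM in the other WT libraries; in Akita it was as high in replicate 2, at 18551 CPM, and at 10682 CPM in replicate 5, so that level was not particular to WT replicate 4. Histone transcripts summed to 7.96 CPM in Akita replicate 1, against 3.94 to 5.10 CPM in the other Akita libraries.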

How the results depend on the processing

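The number of genes past the test moved with the model more than their direction did. Against 101 genes (34 higher, 67 lower), DESeq2 gave 354 (117 and 237), all 40 libraries in one fit 543 (199 and 344), the share of olfactory and vomeronasal receptor genes as covariate 382 (131 and 251), and the mt-Co1 class as covariate 551 (192 and 359). The 4 libraries with high mt-Co1 gave 313 (85 and 228) and the 6 with low mt-Co1 54 (23 and 31). The replicate block left 32 genes (11 and 21), of which 29 were among the 101. Same-numbered libraries had correlations of their deviations of 0.41, 0.19, 0.37, -0.42 and -0.42. These values may also carry differences in library quality, so whether the numbers pair the samples cannot be told from them. Leaving out single libraries gave 32 to 94 genes, 9 to 37 higher and 23 to 70 lower, and without WT replicate 3 the higher count was 18. Separated genes numbered 534 to 765 in those fits, with fewer samples to part, and 720 without WT replicate 2. Interaction calls were 0 except for 2 by DESeq2. The cause of these shifts was not tested. Scaling by RLE (97 genes), no count minimum (111), at least 10 counts in every library (89) and voom weights (122) stayed within 1.5 times. Signs turned in genes that did not pass: Col4a1 was at -0.059 with voom weights, -0.017 in the 6 libraries and -0.067 to 0.115 with single libraries removed; 4933433N18Rik at -0.21 with voom, -0.72 in the 6 libraries and -0.0062 to 0.593 with single libraries removed; Olfr1393 at -0.35 in the 6 libraries and -0.064 to 0.470 with single libraries removed; and Slc38a3 at -0.11 in the 4 libraries. Genes near 1 CPM rest on few counts, and changes smaller than 0.73 on the log2 scale did not pass at this spread.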
